A study of Pyrus calleryana with 9 samples.

Results

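The MADS-box transcription factors of Callery pear (Pyrus calleryana) seeds were examined as a family. A gene was taken as a member when its Swissprot protein match carried MADS-box or Agamous-like in its name. The rule found 112 members among 59552 genes in the table. Seeds were separated from mature fruit, dried, imbibed in water for 24 h and held on wet filter paper at 4 °C. Whole seeds were sampled after 0 d, 20 d and 50 d of this cold stratification, the treatment that releases pear seed from dormancy. The 0 d seeds were imbibed but not chilled, so all 3 stages shared the imbibition, and each replicate was a pool of seeds with embryo and seed coat together. There were 3 biological replicates per stage, named A, B and C, and RNA-seq gave gene counts and FPKM values (fragment counts scaled by transcript length and by library size) in 9 libraries. No unchilled seeds of the later ages were among the samples, so cold and time in the moist state cannot be told apart.

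MADS-box proteins bind DNA through a conserved domain of the SRF type, usually as dimers or larger complexes. In plants the MIKC type also carries a keratin-like K-box through which its members pair, whereas type I proteins lack it. Type I genes of Arabidopsis are best known from the female gametophyte and the endosperm. MIKC genes are known for specifying floral organs and for timing flowering, and in Rosaceae trees such as peach the DORMANCY-ASSOCIATED MADS-BOX genes of the SVP/AGL24 clade are known from winter bud dormancy. Each pear gene is named here by its closest Swissprot entry, which is a match and not a proven orthologue.

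The label held for most members in their Pfam annotation, which the rule did not use. An SRF-type domain was annotated in 107 of the 112 members and a K-box in 54. Both were present in 50 members, the SRF-type domain alone in 57, the K-box alone in 4 and neither in 1. The table held 118 genes with an SRF-type domain, of which 11 were not members, since they had no Swissprot name or one without the search words, such as Floral homeotic protein DEFICIENS.

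Most of the family had no counts or few in these seeds. How reads that align to several copies were counted is not stated, so a low count need not mean low expression. No count was recorded for 42 members (37.5%) in any library, against 28.4% of all genes in the table. A further 41 members had counts but were too low to test, with at most 88 counts over the 9 libraries, and 29 members were tested. A mean of at least 1 FPKM was reached by 26 members (23.2%), against 41.8% of all genes. The 5 most counted members held 71.1% of all counts of the family. Of the 54 members with a K-box, 10 had no count and 17 were tested. Among the 58 without it, 32 had no count and 12 were tested. These 58 were not all type I: 44 were type I and 8 belonged to the MIKC* clade. Of the 12 tested, 6 were type I and 5 MIKC*, and the other was Chr9.g47370, matched to OsMADS7.

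The clades were unequal in the same way. All 7 SVP/AGL24 members had counts and were tested. Of 44 type I members, 19 had counts and 6 were tested, and of 19 genes matched to AGL80, an Arabidopsis central cell factor, 9 had counts. The 4 members of the AG clade, which specifies stamens, carpels and ovules, and the 2 matched to AGL12 had no tested gene. In the AP1/FUL clade 5 of 7 members had counts and only 1 was tested. LEAFY or FLORICAULA, an upstream regulator of floral MADS-box genes, summed to at most 2.23 FPKM in any library.

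Library totals ran from 13893019 to 16228340 counts. Replicates correlated at 0.924 to 0.975 on log2 normalised counts, except that 20 d B correlated with the other 20 d libraries at 0.883 and 0.892, and 50 d A with 50 d C at 0.900. Calls that change without 20 d B are therefore given with and without it. Seed markers were present throughout, and their levels moved with stage. The 10 oleosin genes summed to 13009 to 24071 FPKM at 0 d, 12772 to 17581 at 20 d and 1978 to 5593 at 50 d, and none was at 0 over the study. The 2 storage globulin and 2S albumin genes summed to 1471 to 4113, 959 to 1708 and 125 to 335 FPKM. The 15 late embryogenesis abundant genes summed to 1587 to 2591, 950 to 1198 and 433 to 938 FPKM. The 11 genes named for anthocyanidin reductase or a leucoanthocyanidin enzyme, listed as seed coat markers, summed to 55.7 to 76.7, 23.5 to 34.5 and 80.6 to 136 FPKM. That list was not limited to reductases, and how far it marks the seed coat was not tested. The 33 chlorophyll a-b binding genes summed to 37.2 to 52.1, 43.7 to 64.7 and 158 to 263 FPKM. The part of these shifts in the results below was not tested. In whole seeds, fewer cells of a type and less RNA per cell cannot be told apart.

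Summed over the family, the MADS-box level fell with stratification. The 112 members together reached 1465, 1125 and 1356 FPKM in 0 d A, B and C. They reached 582, 943 and 609 FPKM at 20 d and 397, 402 and 572 FPKM at 50 d. The stages did not overlap, and 20 d B stood nearest to the unchilled seeds among the chilled ones. The SVP/AGL24 clade summed to 416 to 656 FPKM at 0 d, 122 to 278.6 at 20 d and 67.8 to 109 at 50 d. The SEP and AGL6 clade, whose SEPALLATA members are partners of the other floral homeotic proteins, summed to 470 to 562, 270 to 401 and 141 to 236 FPKM. The MIKC* clade, known from Arabidopsis pollen, summed to 90.1 to 122, 45.4 to 78.5 and 44.9 to 66.8 FPKM. The AP1/FUL clade went the other way, from 45.5 to 50.4 FPKM at 0 d to 77.8 to 87.7 at 50 d, nearly all of it from Chr17.g24676. The low SOC1 clade also went up, from 1.85 to 4.23 FPKM at 0 d to 4.51 to 11.7 at 50 d.

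**Figure D1:**
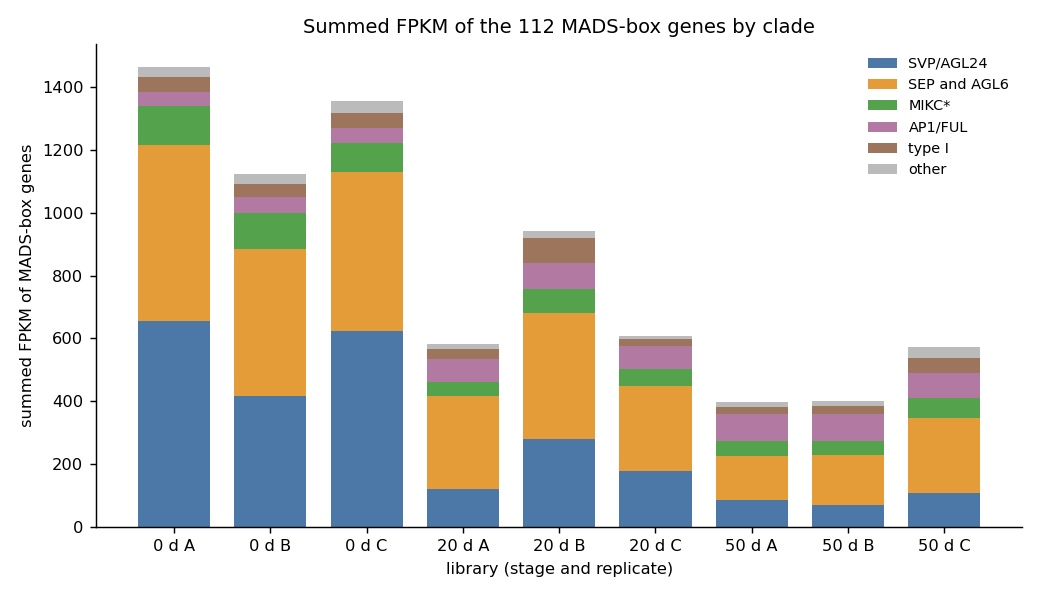
Summed FPKM of the 112 MADS-box genes in each library, with each bar split by clade; the x axis gives stage and replicate and the y axis the sum in FPKM. The bars fall from 1125 to 1465 FPKM at 0 d to 397 to 572 at 50 d, and the SVP/AGL24 and SEP segments shrink while the AP1/FUL segment grows.

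A gene was called when the edgeR quasi-likelihood test gave a Benjamini-Hochberg adjusted p of at most 0.01 over all 28339 tested genes, the log2 fold change reached 1 in size, and the earlier or the later stage had a mean of 1 FPKM or more. From 0 d to 20 d, 5 of the 29 tested members were called and all 5 were lower at 20 d. The background was 12.4% of tested genes called in either direction, 4.52% lower and 7.88% higher. The median log2 fold change of the tested members was −0.83, against 0.15 for all tested genes. The fitted change was below 0 in 20 members (69.0%), against 44.8% of all tested genes. In 14 members the 20 d values lay below all 0 d values, and in 1 above, against 21.3% and 20.8% of all tested genes. The count of member calls was 10 without 20 d B, 1 without any of 0 d B, 0 d C, 20 d A or 20 d C, 2 without 0 d A and 3 without 50 d B. The count over all genes moved with it, from 3515 to 6984 without 20 d B, to 1236 to 1419 without 1 of those 4 libraries, to 1311 without 0 d A and to 2409 without 50 d B. The 5 members gained without 20 d B were Chr15.g00612, Chr5.g09221, Chr6.g51197, Chr14.g48517 and Chr10.g16850.

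From 20 d to 50 d, 2 members were called, both lower at 50 d and both matched to AGL24. The background was 1.66% of tested genes, 0.254% lower and 1.4% higher. The median of the tested members was −0.45, against −0.06 for all tested genes, and 19 members (65.5%) were fitted below 0, against 54%. The 50 d values lay below every 20 d value in 8 members and above in 0, against 10.8% and 14.8%. Without 50 d B only 1 of the calls was left, as the count over all genes went from 470 to 134.

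From 0 d to 50 d, 13 of the 29 tested members were called, all lower at 50 d, against a background of 26.6% of tested genes, 11% lower and 15.6% higher. The median was −1.40, against 0.16 for all tested genes, and 21 members (72.4%) were fitted below 0, against 45.5%. In 17 members the 50 d values lay below every 0 d value and in 3 above, against 26.2% and 29.5% of all tested genes. The count was 6 without 50 d B and 8 without 50 d A, where that over all genes went from 7536 to 4829 and 4986, and was 10 to 15 without any other single library. All 5 members called by 20 d were among the 13, and 7 members were called over the whole 50 d only. No member was called higher in any comparison by edgeR, DESeq2 or limma. At an unadjusted p under 0.05 by edgeR, 15, 8 and 19 members passed in the 3 comparisons in either direction. Of these, 1, 0 and 2 were higher at the later stage. By DESeq2 2 of 20, 1 of 9 and 4 of 23 were higher, and by limma on log2(FPKM + 1) 1 of 15, 2 of 10 and 3 of 20. A gene can pass the low-count filter through a single stage, so these counts describe the tested members and not the family, and the comparisons share their libraries.

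**Figure D2:**
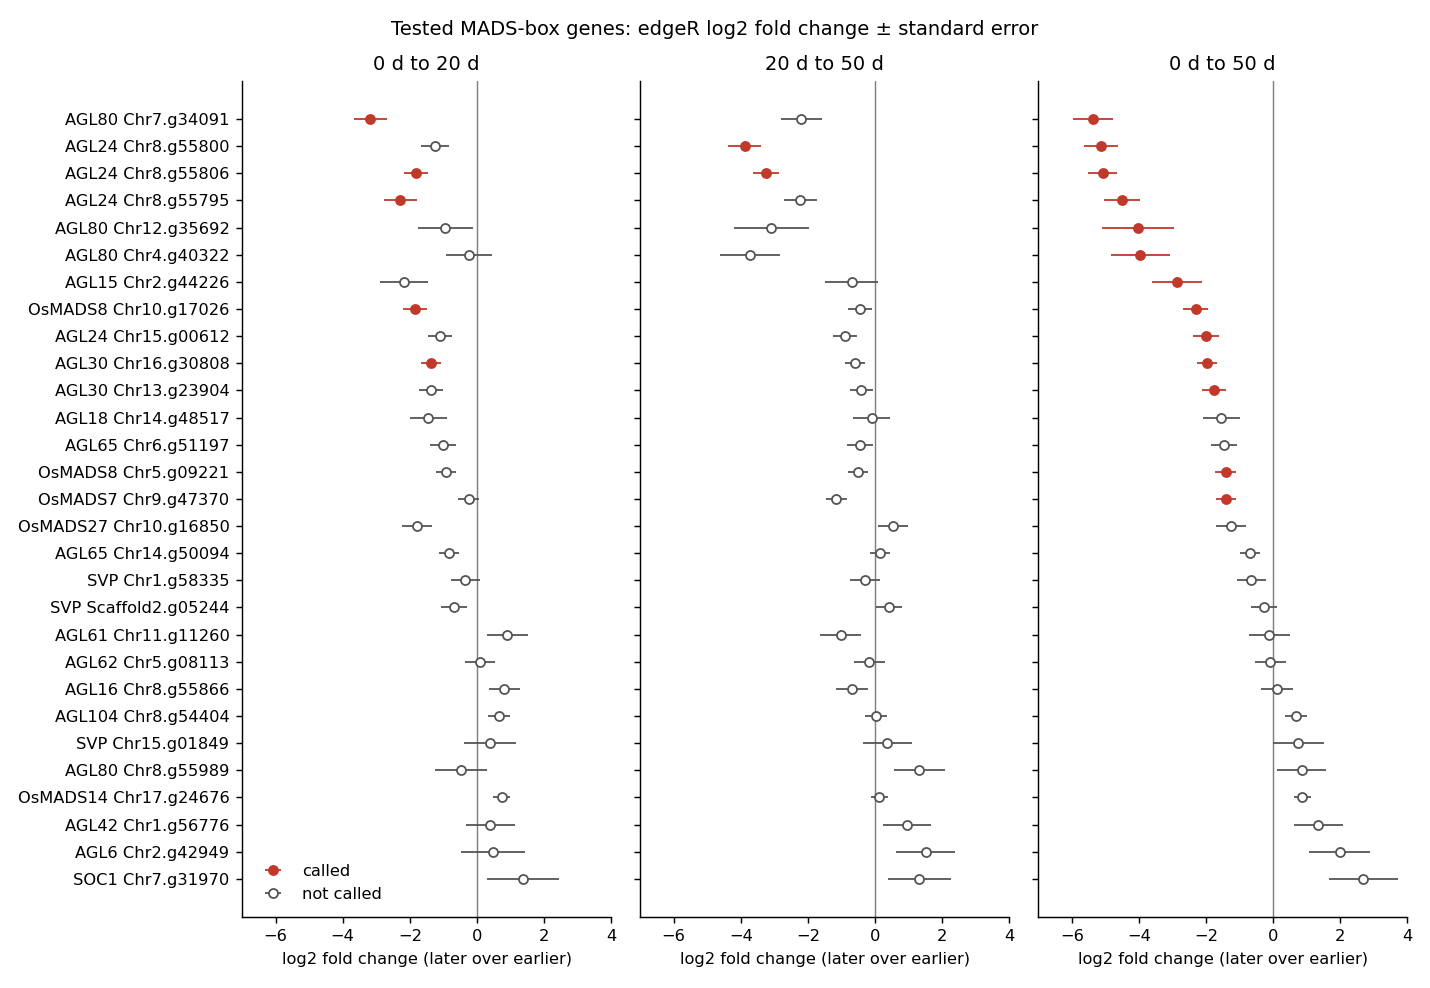
Log2 fold change (x axis, later over earlier stage) with its standard error for the 29 tested MADS-box genes in the 3 comparisons, labelled by Swissprot match and gene and ordered by the 0 d to 50 d change; filled red points are called. The called points, 5, 2 and 13 in number, all lie left of 0, as do 20, 19 and 21 of the 29 members in all. The members to the right are not called.

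Among the members with a mean of at least 5 FPKM over all libraries, those with the 3 steepest falls were of the SVP/AGL24 clade. SVP represses flowering in Arabidopsis, and AGL24 promotes it. All 4 genes matched to AGL24 fell between 0 d and 50 d, while none of the 3 matched to SVP was called. Chr8.g55795 lies on chromosome 8 (19129535 to 19139213, plus strand, coordinates of the P. betuleafolia reference used by the study) and was among the leading members before chilling. It stood at 223, 147 and 227 FPKM in 0 d A, B and C, at 24.8, 59.1 and 31.8 at 20 d, and at 3.40, 8.48 and 13.4 at 50 d. No stage overlapped the next, and the fall was 22.8-fold over the 50 d (log2 −4.51 ± 0.53 SE; edgeR, Benjamini-Hochberg adjusted p = 9.3e-05). It was called by 20 d as well (log2 −2.28 ± 0.48; edgeR, Benjamini-Hochberg adjusted p = 0.0057), though leaving out any 0 d library, 20 d A, 20 d C or 50 d B took that early call to an adjusted p of 0.011 to 0.029. From 20 d to 50 d it moved by log2 −2.23 ± 0.49 and was not called (edgeR, Benjamini-Hochberg adjusted p = 0.021).

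Chr8.g55806 (chromosome 8, 19275119 to 19284744, plus strand) was the only member called in all 3 comparisons. Its values were 71.3, 54.6 and 73.9 FPKM at 0 d, 10.7, 23.5 and 18.9 at 20 d, and 1.19, 2.21 and 2.26 at 50 d. Every library of a stage lay below every library of the stage before. The log2 fold change was −1.83 ± 0.36 by 20 d, −3.26 ± 0.39 from 20 d to 50 d and −5.08 ± 0.42 over the 50 d, a 33.9-fold fall (edgeR, Benjamini-Hochberg adjusted p = 0.0042, 0.0015 and 1.7e-05). The first of these calls was lost, at an adjusted p of 0.012 to 0.021, without any 0 d library, 20 d A or 20 d C.

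Chr8.g55800 (chromosome 8, 19183229 to 19192371, plus strand) was called in the later interval and over the 50 d. It stood at 23.8, 18.5 and 16.6 FPKM at 0 d, at 5.35, 10.4 and 7.67 at 20 d and at 0.224, 0.507 and 0.897 at 50 d. The stages did not overlap. By 20 d the log2 fold change was −1.24 ± 0.41 and was not called (edgeR, Benjamini-Hochberg adjusted p = 0.042), though DESeq2 called it (adjusted p = 0.0087). From 20 d to 50 d the log2 fold change was −3.89 ± 0.50 (edgeR, Benjamini-Hochberg adjusted p = 0.0018, and 0.013 without 50 d B), and over the whole course it was −5.13 ± 0.52 (edgeR, Benjamini-Hochberg adjusted p = 3.8e-05). Whether the fall differed between the intervals was not tested.

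These 3 AGL24-matched genes lie in 1 group on chromosome 8 that spans 155210 bases in the same orientation. Between the outer members lie 9 other genes without a Swissprot name, of which 6 had no count and 0 were tested. In the 100000 bases to either side, 12 of 16 genes were tested, and 1 was called lower over the 50 d and 0 higher. The gene called was the nearest on the left, Chr8.g55794, matched to a DnaJ chaperone, which went from a mean of 118 FPKM at 0 d to 42.5 at 50 d (log2 −1.41 ± 0.30; edgeR, Benjamini-Hochberg adjusted p = 0.0029). Members lying within 200000 bases of each other formed 23 such groups holding 56 members, and this was the only group in which every member was tested and called. No source used here says how reads that align equally well to neighbouring copies were counted, so the split of counts among the 3 genes is uncertain.

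**Figure D3:**
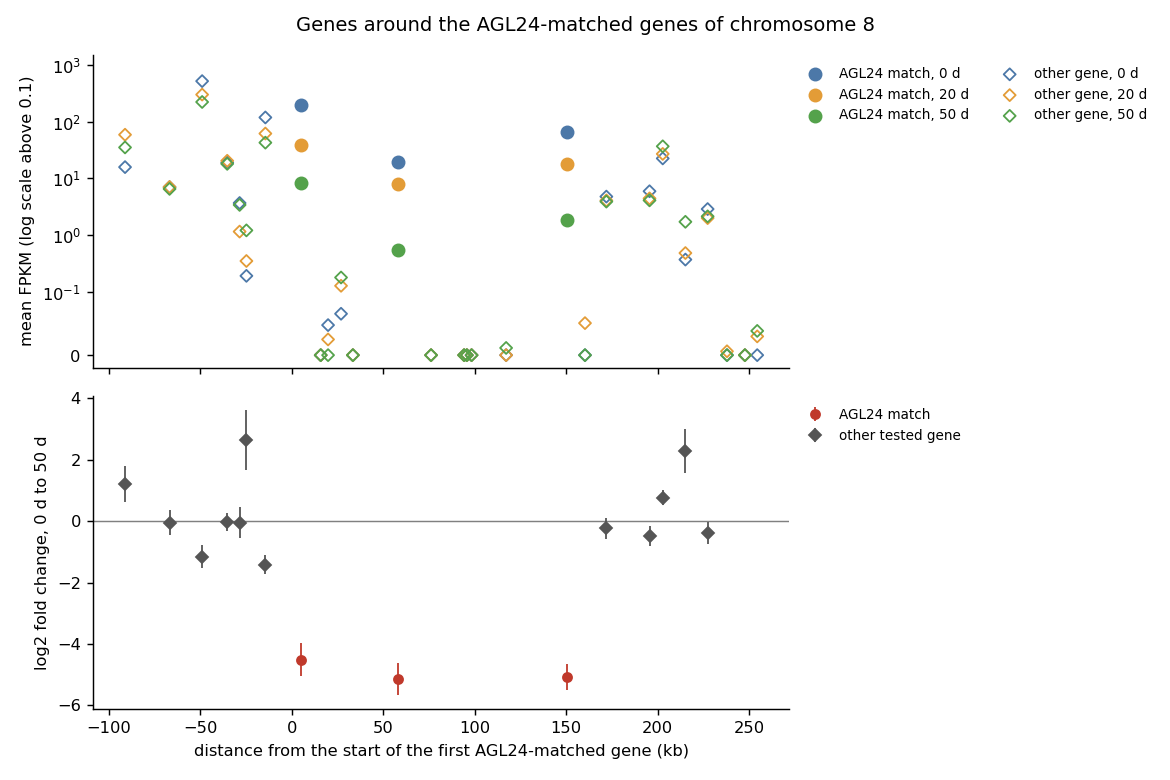
Genes around the 3 AGL24-matched genes of chromosome 8 by distance from the start of the first (x axis, kb); the upper panel gives the mean FPKM of 3 libraries per stage on an axis that is logarithmic above 0.1, and the lower panel the 0 d to 50 d log2 fold change with its standard error for the tested genes. The 3 AGL24-matched genes lie between −4.51 and −5.13, and the 12 tested neighbours lie above −2.

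The other AGL24-matched gene, Chr15.g00612 on chromosome 15 (40325639 to 40344638, minus strand), was the member the study also followed by quantitative PCR. The primer pair listed for this gene is shown with the last 5 bases at the 3′ end, from which extension starts, in capitals. Whether the pair also matches the AGL24 copies of chromosome 8 was not checked.
Forward primer: ccttggccgtgtgatTCAAA
Reverse primer: tggcttagctggttgTTTGC
The gene stood at 309, 181 and 290 FPKM at 0 d, at 70.2, 164 and 108 at 20 d, and at 69.4, 44.97 and 72.9 at 50 d. The 0 d libraries lay above the others, while 20 d and 50 d overlapped through 20 d A. It fell 3.99-fold over the 50 d (log2 −1.995 ± 0.38; edgeR, Benjamini-Hochberg adjusted p = 0.0016, and 0.011 without 50 d B). By 20 d the log2 change was −1.10 ± 0.37 and was not called (edgeR, Benjamini-Hochberg adjusted p = 0.044), and it was called without 20 d B at −1.55 (adjusted p = 0.0045). At 50 d it still ranked 4 in the family, whereas Chr8.g55795 went from rank 3 at 0 d to rank 12, Chr8.g55806 from 5 to 22 and Chr8.g55800 from 11 to 28.

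The SVP-matched genes were not called in any comparison. Chr1.g58335 stood at 21.7, 10.3 and 10.5 FPKM at 0 d, 8.21, 16.1 and 7.07 at 20 d and 6.58, 6.62 and 12.8 at 50 d, with all stages overlapping. Its 0 d to 50 d log2 change of −0.65 ± 0.44 was not called (edgeR, Benjamini-Hochberg adjusted p = 0.25). The other 2 had means of at most 5.61 FPKM at any stage and were not called. Whether the AGL24-matched and SVP-matched genes differ in their change was not tested.

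Among the SEP and AGL6 members, 3 genes held nearly all of the level, and each fell. OsMADS7 and OsMADS8 are rice SEPALLATA-type factors of floral organ identity. The gene matched to OsMADS7, Chr9.g47370 (chromosome 9, 540541 to 552168, plus strand), had the highest mean of the family at every stage. It stood at 305, 228 and 251 FPKM at 0 d, at 190, 259 and 174 at 20 d and at 72.2, 87.9 and 125 at 50 d. The first 2 stages overlapped and the third lay below both. The log2 change was −0.25 ± 0.30 by 20 d and −1.40 ± 0.31 by 50 d, and only the latter was called (edgeR, Benjamini-Hochberg adjusted p = 0.56 and 0.0037, the second 0.021 without 50 d A and 0.022 without 50 d B).

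Of the 2 genes matched to OsMADS8, 1 was called by 20 d. Chr10.g17026 (chromosome 10, 3038959 to 3047305, minus strand) stood at 34.8, 53.7 and 69.0 FPKM at 0 d, at 12.6, 19.1 and 9.62 at 20 d and at 10.5, 9.29 and 10.8 at 50 d. Its chilled libraries all lay below the unchilled ones and overlapped each other. It was called by 20 d (log2 −1.85 ± 0.36; edgeR, Benjamini-Hochberg adjusted p = 0.0039) and over the 50 d (log2 −2.31 ± 0.37; adjusted p = 5.3e-04). The early call was lost, at an adjusted p of 0.015 to 0.023, without 0 d B, 0 d C, 20 d A or 20 d C. Chr5.g09221 (chromosome 5, 3819097 to 3835587, minus strand) went from 221, 188 and 187 FPKM at 0 d through 90.8, 122 and 85.3 to 56.8, 61.2 and 96.9 at 50 d. By 20 d its log2 change was −0.91 ± 0.30 and was not called (edgeR, Benjamini-Hochberg adjusted p = 0.039), and it was called without 20 d B at −1.19 (adjusted p = 0.0090). Its 0 d to 50 d change was called (log2 −1.41 ± 0.30; edgeR, Benjamini-Hochberg adjusted p = 0.0031, and 0.019 without 50 d A or 0.021 without 50 d B). The 1 other tested gene of the clade, matched to AGL6, stayed below 1.5 FPKM in every library and was not called.

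The highest AP1/FUL member was the only gene at that mean level (at least 5 FPKM) whose chilled libraries all stood above the unchilled ones at both later stages. Chr17.g24676 (chromosome 17, 582343 to 595837, plus strand) is matched to OsMADS14, a rice factor of the AP1/FUL clade that promotes the change to flowering. Its values were 45.1, 50.0 and 48.6 FPKM at 0 d, 72.4, 81.6 and 73.8 at 20 d and 87.5, 87.1 and 77.6 at 50 d. The replicates were close together, and 20 d and 50 d overlapped. The log2 change was 0.74 ± 0.25 by 20 d and 0.87 ± 0.25 by 50 d, below the fold limit and not called (edgeR, Benjamini-Hochberg adjusted p = 0.044 and 0.015). By rank within the family it went from 7 at 0 d to 4 at 20 d and 2 at 50 d.

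Of the 5 tested MIKC* genes, the 2 matched to AGL30 fell. Chr16.g30808 (chromosome 16, 3950331 to 3953682, minus strand) stood at 34.8, 28.5 and 24.5 FPKM at 0 d, at 9.88, 11.5 and 10.5 at 20 d and at 6.18, 5.69 and 9.66 at 50 d, with no overlap between stages. It was called by 20 d (log2 −1.38 ± 0.30; edgeR, Benjamini-Hochberg adjusted p = 0.0071) and over the 50 d (log2 −1.97 ± 0.31; adjusted p = 4.9e-04). The early call was lost without any single library other than 20 d B or 50 d C, at an adjusted p of 0.011 to 0.038. Chr13.g23904 (chromosome 13, 4011485 to 4015906, minus strand) went from 10.99, 7.70 and 6.64 FPKM at 0 d through 2.29, 3.16 and 3.81 to 1.89, 2.38 and 2.85 at 50 d. Its unchilled libraries lay above the rest, and the 0 d to 50 d change was called (log2 −1.77 ± 0.36; edgeR, Benjamini-Hochberg adjusted p = 0.0021, and 0.013 without 50 d A or 0.011 without 50 d B).

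The other MIKC* genes were not called. AGL65 and AGL104 act with AGL30 in Arabidopsis pollen maturation. Chr6.g51197, matched to AGL65, went from 41.2, 40.9 and 30.8 FPKM at 0 d to 10.7, 10.7 and 17.9 at 50 d and just missed the limit (log2 −1.47 ± 0.39; edgeR, Benjamini-Hochberg adjusted p = 0.011, and 5.8e-04 without 20 d B or 0.0067 without 50 d C). By 20 d its log2 change was −1.02 ± 0.39 (edgeR, Benjamini-Hochberg adjusted p = 0.069), and it was called without 20 d B at −1.66 (adjusted p = 0.0016). Chr14.g50094, also matched to AGL65, had means of 21.9 ± 3.63 FPKM at 0 d and 13.1 ± 3.39 at 50 d (SD, n = 3). Chr8.g54404, matched to AGL104, stood at 14.2, 9.58 and 9.25 FPKM at 0 d, at 10.7, 21.04 and 17.3 at 20 d and at 14.9, 16.1 and 19.6 at 50 d. Its 50 d libraries lay above its 0 d libraries, and the log2 change of 0.68 ± 0.33 was not called (edgeR, Benjamini-Hochberg adjusted p = 0.11).

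Of the 6 tested type I genes, 3 of the 4 matched to AGL80 were called, all of them low, and the other 3 genes were not. Chr7.g34091 (chromosome 7, 6342109 to 6342822, plus strand) stood at 8.63, 6.72 and 11.9 FPKM at 0 d, at 0.716, 1.11 and 1.004 at 20 d and at 0.0736, 0.251 and 0.295 at 50 d. The stages did not overlap. It fell 9.02-fold by 20 d (log2 −3.17 ± 0.50; edgeR, Benjamini-Hochberg adjusted p = 0.0014), the early call that held without each single library, and 41.3-fold over the 50 d (log2 −5.37 ± 0.59; adjusted p = 6.2e-05).

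The other 2 AGL80-matched genes called were near the detection limit. Chr4.g40322 (chromosome 4, 24110708 to 24111301, plus strand) had 61 counts over the 0 d libraries, 50 at 20 d and 4 at 50 d. Its 0 d to 50 d call (log2 −3.95 ± 0.88; edgeR, Benjamini-Hochberg adjusted p = 0.0038) was lost without 0 d B (adjusted p = 0.021), 50 d B (0.017) or 50 d C (0.011). Chr12.g35692 (chromosome 12, 23070272 to 23070913, plus strand) had 33 counts at 0 d, 17 at 20 d and 2 at 50 d, a 16.8-fold ratio of 0 d to 50 d by library size with a 95% counting interval of 4.30 to 145. It was called over the 50 d (edgeR, Benjamini-Hochberg adjusted p = 0.0098), and the call was lost without any library other than 20 d B, at an adjusted p of 0.012 to 0.044.

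The well-expressed type I genes showed no change past the limits. AGL62 holds back cellularization of the Arabidopsis endosperm, and AGL61 acts with AGL80 in the central cell. The AGL62 match, Chr5.g08113, had means of 17.6 ± 5.77, 17.6 ± 11.5 and 15.99 ± 4.28 FPKM (SD, n = 3) at the 3 stages, and its 0 d to 50 d log2 change was −0.08 ± 0.45. The AGL61 match, Chr11.g11260, stood at 8.70, 12.4 and 15.99 FPKM at 0 d, at 14.2, 41.6 and 9.78 at 20 d and at 4.42, 8.26 and 20.6 at 50 d. Library 20 d B was the highest of all 9, and the 3 stages overlapped.

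The AGL15/18, AGL17 and SOC1 clades were low. AGL15 is known for its accumulation in Arabidopsis embryos, and AGL18 acts with it to delay flowering. Chr2.g44226 (chromosome 2, 26969189 to 26973001, plus strand), matched to AGL15, went from 1.05, 2.17 and 3.42 FPKM at 0 d through 0.165, 0.279 and 0.926 to 0.340, 0.231 and 0.272 at 50 d. All unchilled libraries lay above the chilled ones, and the 0 d to 50 d call (log2 −2.87 ± 0.75; edgeR, Benjamini-Hochberg adjusted p = 0.0094) was lost without any library other than 20 d B or 20 d C, at an adjusted p of 0.010 to 0.043. Chr14.g48517, matched to AGL18, stood at 12.5, 14.8 and 15.6 FPKM at 0 d and at 2.47, 3.77 and 8.03 at 50 d. These groups did not overlap, but the log2 change of −1.55 ± 0.55 was not called (edgeR, Benjamini-Hochberg adjusted p = 0.039, and 0.0054 without 20 d B). By 20 d it was −1.44 ± 0.55 (edgeR, Benjamini-Hochberg adjusted p = 0.066), and it was called without 20 d B at −2.34 (adjusted p = 0.0027).

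In the AGL17 clade, Chr10.g16850 is matched to OsMADS27, a rice root factor. It stood at 10.2, 8.34 and 7.77 FPKM at 0 d, at 2.52, 2.33 and 2.28 at 20 d and at 1.75, 2.71 and 6.21 at 50 d. The unchilled libraries lay above all others, and the change by 20 d just missed the limit (log2 −1.80 ± 0.45; edgeR, Benjamini-Hochberg adjusted p = 0.012, and 0.0086 without 20 d B, 0.0084 without 50 d A or 0.0028 without 50 d C). Over the 50 d the log2 change was −1.26 ± 0.44 (adjusted p = 0.035, and 0.0032 without 50 d C).

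SOC1 integrates flowering signals in Arabidopsis and is a target of AGL24 there. Its best-expressed pear match, Chr7.g31970, stood at 0, 0.166 and 1.76 FPKM at 0 d, at 0.682, 3.65 and 0.521 at 20 d and at 2.80, 4.29 and 5.24 at 50 d. All 50 d libraries lay above the 0 d ones, on 10 counts at 0 d and 75 at 50 d, and the log2 change of 2.69 ± 1.04 was not called (edgeR, Benjamini-Hochberg adjusted p = 0.053). The other tested SOC1-clade gene, matched to AGL42, was not called, and the remaining 7 had too few counts to test.

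**Figure D4:**
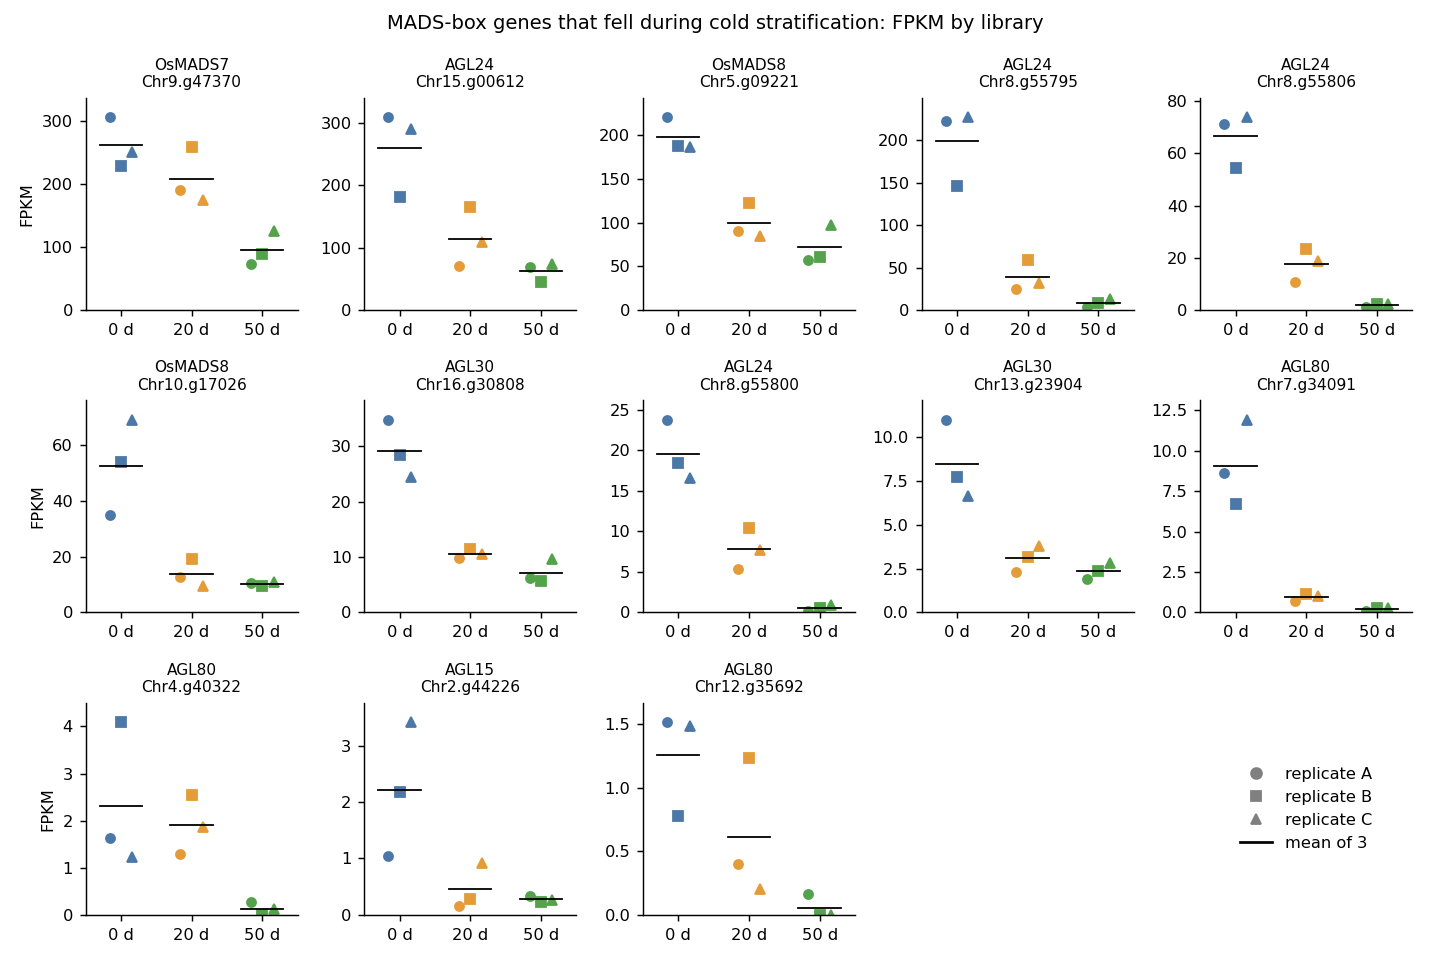
FPKM of the 13 MADS-box genes called in any comparison, 1 panel per gene, titled by Swissprot match and gene; the x axis gives the stage, each point is 1 library (circle A, square B, triangle C), the line is the mean of 3 and each y axis has its own linear scale from 0. In each panel the 50 d points lie below all 0 d points, and the square of 20 d B is often the highest of its stage.

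As possible regulators or targets of MADS-box factors, 90 genes matched by name to flowering and chromatin regulators were followed, of which 68 were tested. By 20 d, 3 of these were called higher and 1 lower, 5.88% of those tested against the background of 12.4%. From 20 d to 50 d, 1 was called higher and 1 lower, 2.94% against 1.66%. Over the 50 d, 7 were called higher and 4 lower, 16.2% against 26.6% (15.6% higher and 11% lower in the whole table). The median 0 d to 50 d log2 change was 0.28, against 0.16 for all tested genes. Of the genes called, 2 were matched to MOTHER of FT and TFL1, a seed germination regulator in Arabidopsis, and differed in direction over the 50 d. Chr6.g50845 stood at 149, 93.1 and 175 FPKM at 0 d, 110, 183 and 77.6 at 20 d and 7.46, 10.6 and 16.1 at 50 d (0 d to 50 d log2 −3.56 ± 0.44; edgeR, Benjamini-Hochberg adjusted p = 1.2e-04). Chr14.g50457 stood at 0.781, 2.04 and 3.11 FPKM at 0 d, 103, 57.4 and 37.5 at 20 d and 15.2, 14.1 and 23.3 at 50 d (0 d to 20 d log2 5.12 ± 0.56; edgeR, Benjamini-Hochberg adjusted p = 2.3e-04). One thus fell late and the other was highest at 20 d.

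Among the other list members called, Chr15.g03032, matched to the chromatin protein MSI4, rose from a mean of 12.8 ± 1.89 FPKM (SD, n = 3) at 0 d to 45.8 ± 5.19 at 50 d (log2 1.91 ± 0.33; edgeR, Benjamini-Hochberg adjusted p = 8.2e-04). A gene matched to the corepressor LEUNIG_HOMOLOG, Chr10.g15372, rose from 6.59 ± 0.401 to 13.2 ± 1.44 FPKM. The genes matched to FCA, an RNA-binding promoter of flowering, fell, Chr13.g23170 from 44.7 ± 9.86 to 15.1 ± 2.22 FPKM (log2 −1.50 ± 0.29) and Chr16.g30054 from 29.1 ± 6.65 to 10.9 ± 0.463 (log2 −1.35 ± 0.27), each with a Benjamini-Hochberg adjusted p of at most 0.0020 by edgeR.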

How the data were processed

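The authors aligned RNA-seq reads of 9 whole-seed libraries to the wild pear (P. betuleafolia) genome with HISAT2. The deposited table held raw read counts per gene, and FPKM values that the authors derived from them. Neither the counting tool nor its treatment of multiply aligned reads and strand was stated in the sources used here. FPKM is scaled by gene length, so it was used for levels, and counts for tests. Columns with the authors' own fold changes and p-values were not used. Groups came from the sample labels.

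Counts were tested with edgeR 4.0.16 (R 4.3.3; TMM, filterByExpr by stage, quasi-likelihood fit of all 9 libraries by stage), with Benjamini-Hochberg adjustment over all tested genes. Calls followed the study's limits for adjusted p (0.01), log2 fold change (1) and mean FPKM (1). The fit was tested on simulated data. DESeq2 1.42.0, limma 3.58.1, other filters, a gene-length correction and the omission of each library were alternatives. Clades were assigned from Swissprot names, and markers and regulators were matched on the recommended name alone. Named were members called in any comparison, those with a mean of at least 5 FPKM over all libraries, the highest tested member of any clade left without one, the gene of the PCR assay, and the 3 highest regulators called per direction. Genes named otherwise (the DnaJ match and those given only by range) were chosen after their values were seen. The members and lists were chosen with earlier results of these data known. Replicate letters were not taken as pairs in the main fit, and a block by letter was run as an alternative. Same-letter libraries deviated together in 2 of 9 pairs only, which cannot settle whether the letters were paired. Primer sequences came from the study's supplementary table. The counting interval covers counting error only.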

Additional observations from a re-analysis of the deposited data

How the results depend on the processing

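No alternative called a MADS-box gene higher at a later stage, and over the 33 gene and comparison pairs at an adjusted p of at most 0.05, with 691 alternative values, 0 changed direction. The pairs were chosen by their p in the main fit, and every alternative reused the same libraries. Some, such as glmTreat and the FPKM limits, kept the same fold change, so a reversal there could not occur. Of 20 called pairs, 4 held under every alternative run, namely the 0 d to 50 d falls of Chr8.g55795, Chr8.g55806, Chr16.g30808 and Chr10.g17026. From 0 d to 20 d the count of 5 became 8 with DESeq2, 8 with the gene-length trend removed and 10 at an adjusted p of at most 0.05. It was 1 with glmTreat, which tests against the fold limit itself, and 1 to 10 when a library was omitted. The count over all genes moved from 3515 to 6191, 5485, 7283, 946 and 1236 to 6984 in the same order. From 20 d to 50 d the count of 2 became 5 with DESeq2, 4 with the length trend removed and 4 at 0.05. It was 1 with at least 1 FPKM required in both stages, and 1 to 2 when a library was omitted. The count over all genes moved from 470 to 1628, 1071, 1483, 227 and 75 to 598 in the same order. With only these stages in the edgeR fit, 0 members and 0 of 27144 genes in all were called (5 members had an unadjusted p under 0.05). From 0 d to 50 d the count of 13 became 6 with glmTreat, 8 with at least 1 FPKM in both stages, and 6 to 15 when a library was omitted. The count over all genes moved from 7536 to 3921, 4996 and 4829 to 10043 in the same order. The cause of these differences was not tested.

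A replicate block by letter gave 1, 1 and 8 member calls in the 3 comparisons, where calls over all genes went from 3515, 470 and 7536 to 1292, 50 and 5163. Same-letter libraries correlated in their deviations from the stage means at −0.56 to 0.55, and 0 of the 9 libraries correlated best with its own letter at both other stages. With 3 libraries per stage, whose deviations depend on each other, this cannot tell whether a letter marks a shared batch. Removing the gene-length trend moved the median of all genes by −0.21, −0.09 and −0.32, and limma on log2(FPKM + 1) by −0.12, 0.05 and −0.10, both over the same 28339 genes. OsMADS14-matched Chr17.g24676 stayed above 0 under each of them. Low counts limit several tested members, among them Chr12.g35692, Chr4.g40322 and Chr7.g31970, with 2, 4 and 10 counts at their lowest stage.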
